A study of Mus musculus and Rattus norvegicus with 18 samples.

Results

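The RNA of H9C2 cells that carry normal Mettl1 was compared with the RNA of control mouse heart, which are the starting points of the cell culture arm and the animal arm of a study of Mettl1, a tRNA methyltransferase. Of the 18 libraries of the series, 5 were used. They were 3 libraries of H9C2 cells labelled WT and 2 RNA libraries of mouse heart labelled Ctrl, chosen by genotype and assay and not by any measured value. The series was made to ask how loss of Mettl1 alters gene expression and translation in heart and in cultured cells.

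The heart libraries came from C57BL/6 mice at 4 weeks of age, with genotype Ctrl as the control for a conditional Mettl1 knockout. The labels do not give the promoter that drives the knockout, nor whether one heart or several went into a library. H9C2 is an established rat line derived from embryonic heart tissue, and the labels give its strain as Sprague-Dawley. The cells grew in high-glucose medium with 10% fetal bovine serum and antibiotics, and they served as control for a line edited by CRISPR-Cas9 to carry a frameshift in Mettl1. RNA was isolated with Trizol in both arms. Species, strain, tissue against culture, age, gene annotation, read counting and depth all differ between the groups, so their parts in any difference cannot be told apart. The labels do not say whether the libraries of a group are from different animals or dishes, and the p-values therefore rest on the spread between these libraries, which may be technical.

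A working heart muscle cell fills itself with sarcomeres, the arrays of myosin and actin filaments that shorten at each beat. It moves calcium through the ryanodine receptor and the SERCA pump, and it burns mainly fatty acids in densely packed mitochondria. Skeletal muscle is built by another set of regulators: MyoD and myogenin turn dividing myoblasts into fused fibres after the cells leave the cell cycle.

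Genes were matched by symbol, which gave 16181 genes with 1 record per symbol in each species. Each library was ranked by CPM, its counts scaled to a common library total, over these genes, and the rank was expressed as a percentile from 0 to 100. A gene's percentile was compared only with the same gene's percentile in the other group, since CPM is not corrected for gene length. Of the matched genes, 12035 reached 1 CPM in at least 2 of the 5 libraries and were tested with limma on percentiles. A gene was called higher in one group when the Benjamini-Hochberg adjusted p was under 0.05, the mean percentiles differed by at least 20 points and no library of one group overlapped the other. A gene under 1 CPM in every library of 1 group entered only through the other group, so its adjusted p is no separate support. The differences below are H9C2 minus heart, with the standard error (SE) of the difference from the limma fit. Percentiles have little room above 90, so log2 fold changes from edgeR are given where both groups stood high.

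The heart libraries held 15964981 and 16203593 counts and the H9C2 libraries 90321496 to 92361715. Mitochondrially encoded genes, left out of the ranks, took 25.6 to 26.3% of heart counts and 6.42 to 7.77% of H9C2 counts. Between 2690 and 2769 matched genes were at 0 in a heart library and between 4094 and 4202 in an H9C2 library, although the latter were sequenced more deeply. A gene at 0 sits at a percentile of 8.31 to 8.56 in heart and 12.7 to 13.0 in H9C2, so a gene at 0 in both shows a small positive difference. Among the H9C2 libraries, replicates 2 and 3 differed most, with a chi-square per degree of freedom of 86.5 against 26.7 and 32.7 for the other pairs.

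The groups differed over much of the transcriptome. Of the tested genes 2243 (18.6%) were called higher in heart and 1903 (15.8%) higher in H9C2. Together they made 34.4%. The counts of called genes in each list below are to be read against these shares. The adjusted p alone would have called 10611 genes (88.2%), and the libraries of the groups did not overlap for 11121 genes (92.4%), so the 20-point rule set the number. Over all tested genes the median difference was 0.995 points and the median absolute difference 13.6 points. edgeR on the same counts, at 4-fold, called 3037 genes (25.2%) higher in heart and 1849 (15.4%) higher in H9C2, 40.6% in all. Spearman's rho over the matched genes was 0.993 between the 2 heart libraries and 0.988 to 0.990 between H9C2 libraries, against 0.714 to 0.721 between a heart and an H9C2 library. These coefficients are across genes, which are not independent replicates, and genes low in both groups raise them: over the tested genes alone the 6 heart and H9C2 pairs gave 0.496 to 0.510.

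**Figure D1:**
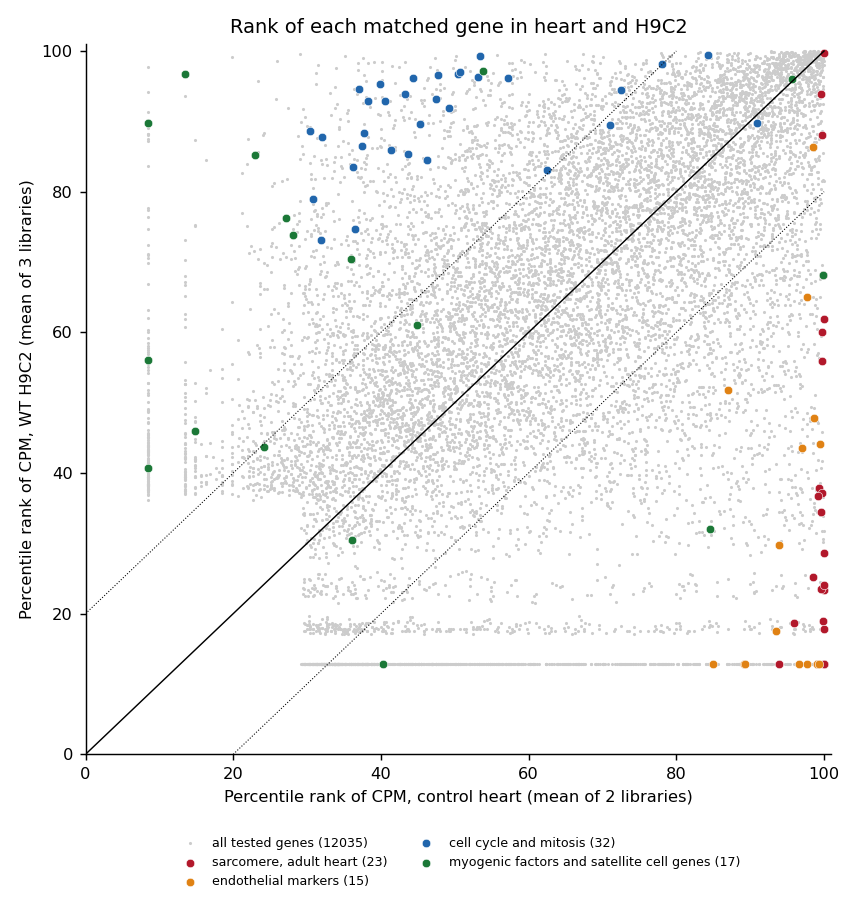
Percentile rank of CPM for each of 12035 tested genes in control heart (x axis, mean of 2 libraries) and WT H9C2 (y axis, mean of 3 libraries), with 4 gene lists in colour; the solid line marks equal rank and the dotted lines a difference of 20 points. Sarcomere and endothelial genes lie along the right edge, at high rank in heart, and cell cycle genes lie above the upper dotted line, apart from 3 of 32.

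Heart counts were held by fewer genes. The 10 matched genes with the highest counts took 12.4% ± 0.019 (SD, n = 2) of matched counts in heart and 6.18% ± 0.0892 (SD, n = 3) in H9C2. The top 100 took 28.2% ± 0.012 and 20.8% ± 0.226, and the top 1000 took 59.8% ± 0.00928 and 55.5% ± 0.497. No share overlapped between the groups. The exact permutation test gave p = 0.2 (two-sided, as 2 times the smaller tail). That is the smallest this form of the test can give for 3 libraries against 2. Among the top 100 genes of each group by mean CPM, 18 (18% of each list) were shared, among them Eef1a1 and Eef2, which carry tRNA to the ribosome and move it along, the collagen genes Col3a1 and Col4a1, the matrix protein gene Sparc, and the glycolytic genes Ldha and Pkm. Of the top 1000 genes, 396 (39.6% of each list) were shared.

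**Figure D2:**
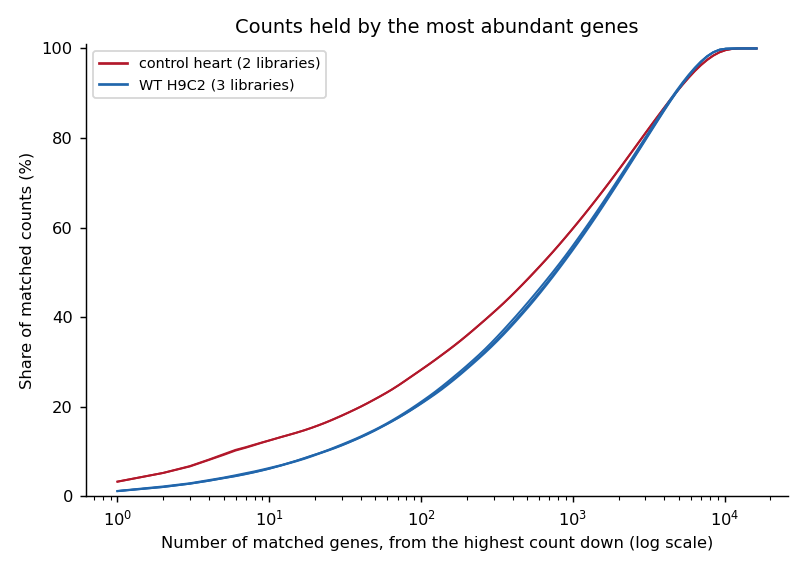
Cumulative share of matched counts (y axis, percent) taken by matched genes from the highest count down (x axis, number of genes, log scale), 1 line per library. The 2 heart lines stay above the 3 H9C2 lines up to the top 1000 genes, where the shares are 59.8% and 55.5%.

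The contractile apparatus of the adult heart was where the groups lay farthest apart among the muscle lists. Of 23 tested sarcomere genes 20 were called higher in heart and 0 higher in H9C2, with a median difference of -71.4 points against 0.995 over all tested genes, and edgeR called all 23. Of these genes 13 stayed under 1 CPM in each H9C2 library. The titin gene and Tcap had no single matched record in both species and were not tested.

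Myh6, the alpha myosin heavy chain of the adult mouse ventricle, was at 32424 and 32202 CPM in the heart libraries and at 0.132, 0.0674 and 0.116 CPM in the H9C2 libraries. It ranked lower in H9C2 by 71.4 points (SE 0.999; limma, Benjamini-Hochberg adjusted p = 3.33e-07). The cardiac actin gene Actc1 was at 14538 and 15241 CPM in heart and at 0, 0 and 0.0777 CPM in H9C2, lower by 82.2 points (SE 4.91). For both genes every H9C2 library stood under 1 CPM and far outside the range of the heart libraries. Both thus entered the test through heart alone.

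Myl2 and Myl3, the ventricular myosin light chains, were at 9786 and 9682 CPM and at 6298 and 5991 CPM in heart, and both were at 0 in all 3 H9C2 libraries. Against the limit that 0 counts allow in the 3 H9C2 libraries together, Myl2 was at least 737232-fold higher in heart. Tnni3, the adult cardiac troponin I, was at 4551 and 4324 CPM in heart and at 0, 0.162 and 0.104 CPM in H9C2. The leiomodin gene Lmod2 and Xirp2, which organise actin at the sarcomere and the disc, were also at 0 in all 3 H9C2 libraries.

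Other sarcomere genes were lower but well detected. Tnnt2, cardiac troponin T and a common marker of heart muscle cells, was at 6026 and 5818 CPM in heart and at 29.6, 26 and 26.8 CPM in H9C2, lower by 38.1 points (SE 0.881). Des, the muscle intermediate filament desmin, was at 2438 and 2246 CPM in heart and at 38.3, 40.9 and 36.8 CPM in H9C2. The chaperone gene Cryab was at 1401 and 1401 CPM against 208, 229 and 187 CPM and was not called at 20 points. Tpm1, a tropomyosin used in many cell types, was at 14467 and 14518 CPM in heart and at 1653, 1709 and 1600.3 CPM in H9C2; its rank differed by -0.227 points, and its edgeR log2 difference was -3.38 (SE 0.07). In all 4 genes each H9C2 library was below both heart libraries.

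The promoter of Actc1 is shown because this gene had 321161 counts over the heart libraries and 6 over the H9C2 libraries, and because cardiac actin promoters are textbook examples of the CArG box, the site of serum response factor. The mouse sequence of the 200 bases just before the start (RefSeq, GRCm38.p6, chr2:114052876-114053075, minus strand, written in the direction of the gene) holds 1 CArG box, in capitals, 37 bases before the start.
Actc1: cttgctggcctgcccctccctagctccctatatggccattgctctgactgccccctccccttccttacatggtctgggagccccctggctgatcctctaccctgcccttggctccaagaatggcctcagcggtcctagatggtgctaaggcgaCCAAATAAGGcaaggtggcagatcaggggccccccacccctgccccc
The search took the CArG box on both strands within 250 bases before the start. It was found in 3 of the 14 sarcomere genes with a single window in the table, Actc1, Myl3 and Myom1, and in 90 of 7542 tested genes (1.19%). Of 20 smooth muscle and actin genes 2 had it, Cnn2 and Actg1, and of 23 cell cycle genes 0. A match describes the letters and not binding. Srf, which encodes serum response factor, did not pass the 20-point rule, at 136 and 135 CPM in heart and 141, 145 and 144 CPM in H9C2.

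By count, more genes of the fetal or stressed heart were called higher in heart than in H9C2. Of 17 tested, 9 were called higher in heart and 3 higher in H9C2 (median -26.8 points, edgeR 9 and 5). The shares over all tested genes were 18.6% and 15.8%. The summed level of the list went the other way, at 2221 to 2318 CPM in heart and 8630 to 10121 CPM in H9C2. The beta myosin gene Myh7 was at 141 and 112 CPM in heart and at 0.145, 0 and 0.0388 CPM in H9C2, and Nppa and Nppb, the natriuretic peptide genes, were at 103 and 89.7 CPM and 80.6 and 68.1 CPM in heart and under 1 CPM in each H9C2 library. The slow troponin Tnni1 was at 1.12 and 0.647 CPM in heart and at 0 in each H9C2 library, below the level needed for testing. The 3 genes called higher in H9C2 were Hmga2, an embryonic chromatin protein gene at 0.0931 and 0 CPM against 32.6, 32.5 and 33.5 CPM, Igf2bp3, an oncofetal RNA-binding protein gene (+46.8 points), and the tropomyosin gene Tpm2 (+28.6 points).

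The regulators of heart muscle ranked lower in H9C2 as a group, with 15 of 20 cardiac transcription factors called higher in heart, 0 higher in H9C2, and a median of -26.6 points. Tbx5 and Tbx20, T-box factors of the forming heart, were at 53.4 and 64.2 CPM and 203 and 198 CPM in heart, and both were at 0 in all 3 H9C2 libraries. Irx4, Prox1, Esrrb and Esrrg were also at 0 there. Gata4, the zinc finger factor that opens cardiac gene programmes, was at 154 and 169.7 CPM in heart and at 25.6, 25.2 and 23.1 CPM in H9C2, lower by 33.2 points (SE 1.01; limma, Benjamini-Hochberg adjusted p = 2.56e-06). Nkx2-5, the cardiac homeobox factor, was at 89.5 and 74.5 CPM in heart and 22.2, 24.8 and 18 CPM in H9C2, lower by 26.8 points (SE 1.96). Both were below the heart range in every H9C2 library and both were still above 10 CPM. Mef2c, which serves heart and skeletal muscle, stood above the heart range in H9C2, at 78.6 and 74.2 CPM against 123, 117 and 122 CPM, a difference of +4.87 points that was too small for a call.

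More genes of the myogenic list were called higher in H9C2 than in heart. Of 26 matched genes of the skeletal muscle lineage 17 passed the filter and were tested, some of them through H9C2 alone. Of these 17, 10 were called higher in H9C2 and 3 higher in heart, with a median of 32.3 points. The shares over all tested genes were 15.8% and 18.6%. Count and median leave out the genes that were low in both groups. Myod1, which commits cells to skeletal muscle, was at 0 in both heart libraries and at 137, 147 and 123 CPM in H9C2, higher by 81.4 points (SE 0.96; limma, Benjamini-Hochberg adjusted p = 2.29e-07). Set against the limit of 3 counts over the 2 heart libraries, it was at least 974-fold higher in H9C2. Myog, which drives myoblasts into differentiation, was at 0 in both heart libraries and at 19, 19.4 and 19.4 CPM in H9C2. Cdh15, the M-cadherin of satellite cells and myoblasts, was at 0 and 0.0924 CPM in heart and at 334, 344 and 322 CPM in H9C2. Each of these genes was absent or at 1 count in heart and steady over the 3 H9C2 libraries. Myod1, Myog and Cdh15 thus passed the filter through H9C2 alone, and their calls are no separate support.

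Musk, the receptor kinase of the nerve-muscle junction, was at 0.279 and 0.277 CPM in heart and at 97.7, 83.9 and 108 CPM in H9C2. Ncam1, a neural and muscle adhesion molecule, was at 13 and 19.1 CPM against 369, 318 and 428 CPM. Eya1 and Eya4, coactivators that act upstream of the myogenic factors, were called higher in H9C2, as was Mymk, which encodes the fusion protein myomaker (+31.2 points). The libraries of the groups did not overlap for any of them.

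The 3 genes of the list called higher in heart were Des, Heyl, a Notch target at 81.1 and 80.8 CPM against 0.396, 0.148 and 0.259 CPM, and Msc, a repressor of myogenic factors at 5.68 and 5.17 CPM against 0 in each H9C2 library. With Des on it, the summed level of the list was 2604 to 2783 CPM in heart and 1397 to 1553 CPM in H9C2. Some genes of the lineage were not counted. Pax3, Pax7 and Myf5, which mark muscle progenitors, and the second fusion gene Mymx were at 0 in each H9C2 library. Itga7, the laminin receptor of muscle, was at 230.2 and 232 CPM in heart and 296, 268 and 293 CPM in H9C2 and was not called. Among the 12 largest differences in the direction of H9C2 stood Myh4, a fast skeletal myosin gene, at 0 and 0.0924 CPM in heart and 305, 276 and 334 CPM in H9C2; myosin genes of this cluster are close copies, and reads may have been shared among them.

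The label calls both H9C2 groups cardiomyocytes, and the markers of that type went against it: 13 of 23 sarcomere genes were under 1 CPM in each library, and the ventricular light chains and the ryanodine receptor were at 0. Myod1 and Myog were counted, but 12 of the 26 matched genes of the myogenic list were also under 1 CPM in each library. Gata4, Nkx2-5, Tnnt2 and Casq2 were nonetheless counted in every H9C2 library. The cells are called H9C2 here, with no cell type name.

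**Figure D3:**
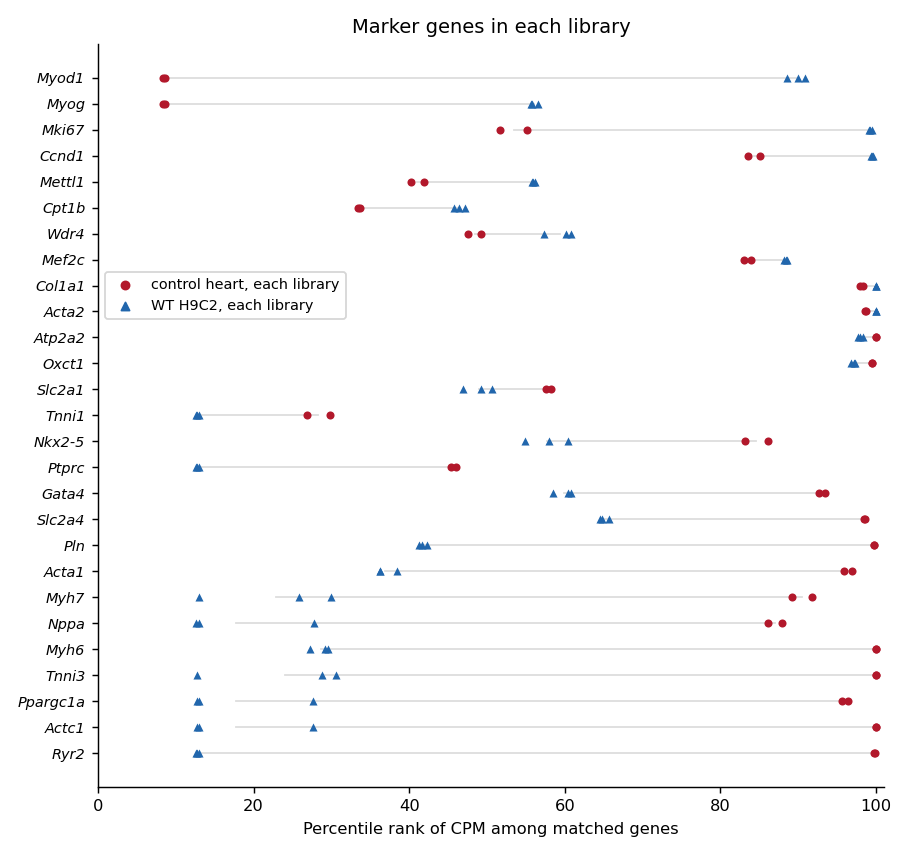
Percentile rank of CPM (x axis) of 27 marker genes in each library, circles for the 2 control heart libraries and triangles for the 3 WT H9C2 libraries, ordered by difference. Myod1 and Myog rank near the bottom in heart, Ryr2 and Actc1 rank near the top in heart and near the bottom in H9C2, and genes such as Atp2a2, Oxct1 and Acta2 rank high in both.

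Several genes that couple excitation to contraction were near or at 0 in H9C2. Of 23 calcium cycling genes 12 were called higher in heart and 0 higher in H9C2, with a median of -26.6 points. Ryr2, the calcium release channel of heart muscle, was at 2137 and 2158 CPM in heart and at 0 in each H9C2 library, lower by 87 points (SE 0.631; limma, Benjamini-Hochberg adjusted p = 9.67e-08). Ryr2 thus entered the test through heart alone. Pln, phospholamban, which restrains the SERCA pump, was at 1777 and 1824 CPM in heart and 3.14, 3.8 and 3.43 CPM in H9C2. Atp2a2, the pump itself, was at 19307 and 19607 CPM in heart and 463, 439 and 501 CPM in H9C2; its edgeR log2 difference was -5.63 (SE 0.09), while its rank differed by -2.02 points, near the top of both lists. Casq2, the calcium buffer calsequestrin, was close in rank, at 1416 and 1489 CPM against 645, 621 and 632 CPM. In H9C2 the release channel was thus not counted, phospholamban was low but counted in every library, and all 4 genes were below the heart range.

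Of 19 ion channel genes of the heart 15 were called higher in heart and 0 higher in H9C2 (median -48 points). Kcnj2 and Kcnj11, potassium channels that set the resting potential and sense ATP, were at 0 in each H9C2 library. Among 19 adrenergic and muscarinic genes 13 were called higher in heart and 0 in H9C2, and Adrb1, the main beta receptor of the heart, was at 25.2 and 31.9 CPM in heart and 0 in each H9C2 library.

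Cell junctions split by gene. Of 18 intercalated disc and gap junction genes 9 were called higher in heart and 1 higher in H9C2. The shares over all tested genes were 18.6% and 15.8%. Cdh2, the N-cadherin that joins heart muscle cells, was at 306 and 334 CPM in heart and at 1.0, 0.93 and 1.23 CPM in H9C2, lower by 59.7 points (SE 0.79). Gja1, the connexin of the ventricle, was not called, at 391 and 446 CPM against 268, 281 and 310.3 CPM. Gja5, the connexin of atria and conduction tissue, was the gene called higher in H9C2, at 19.5 and 20.8 CPM in heart and 303, 301 and 322 CPM in H9C2. Ctnna1 and Ctnnb1, catenins that link cadherins to actin, did not pass the 20-point rule, and Ctnna3 and Pkp2 of this list had no single match and were not tested.

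The cell cycle list stood at the other end. Of 32 tested genes 29 were called higher in H9C2 and 0 higher in heart, with a median of 45.8 points. Mki67, which coats mitotic chromosomes and marks dividing cells, was at 16.9 and 14.1 CPM in heart and at 882, 807 and 1026 CPM in H9C2, higher by 45.8 points (SE 1.11; limma, Benjamini-Hochberg adjusted p = 1.32e-06). Top2a, the topoisomerase that untangles replicated DNA, was at 11.4 and 15 CPM in heart and 360.4, 328 and 379 CPM in H9C2. Ccnb1, the cyclin that starts mitosis, was at 3.16 and 4.99 CPM in heart and 119, 130.4 and 112 CPM in H9C2. No heart library came near the H9C2 range for these genes, yet none of them was at 0 in heart. All 6 MCM helicase genes on the list, Mcm2 to Mcm7, were called, as were Bub1 (+58.2 points), a spindle checkpoint kinase gene, and Foxm1, the transcription factor of mitotic genes (+41.7 points).

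The 3 genes of the list that were not called were Ccnd1, Ccnd2 and Cenpa. Ccnd1, the cyclin that responds to growth signals, was at 76.5 and 83.7 CPM in heart and 1078, 1036 and 1177 CPM in H9C2; its edgeR log2 difference of 3.53 (SE 0.09) came with 15.2 points, since it already ranked high in heart. Ccnd2 was at 129 and 129 CPM against 131, 109.6 and 179.8 CPM.

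Promoters of 2 of these genes are shown because the list moved together and because mitotic promoters are known for CCAAT boxes, the site of the factor NF-Y, and for the CHR element, TTTGAA. Each line gives the 200 bases just before the start of the mouse gene in the direction of the gene (RefSeq, GRCm38.p6, minus strand: Top2a at chr11:99024190-99024389 and Ccnb1 at chr13:100786487-100786686). Capitals mark CCAAT or its reverse complement, and TTTGAA or its reverse complement.
Top2a: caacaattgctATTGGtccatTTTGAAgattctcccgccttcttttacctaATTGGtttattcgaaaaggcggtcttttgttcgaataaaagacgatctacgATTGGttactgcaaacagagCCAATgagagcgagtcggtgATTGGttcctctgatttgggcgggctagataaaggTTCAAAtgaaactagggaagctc
Ccnb1: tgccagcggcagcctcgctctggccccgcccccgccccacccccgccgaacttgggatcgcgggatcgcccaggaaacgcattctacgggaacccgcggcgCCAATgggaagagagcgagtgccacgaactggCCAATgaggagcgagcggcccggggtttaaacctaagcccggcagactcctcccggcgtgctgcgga
The Top2a window holds 5 CCAAT boxes, from 53 to 184 bases before the start, and 2 TTTGAA sites. The Ccnb1 window holds 2 CCAAT boxes and 0 of the exact letters TTTGAA. Within 250 bases before the start and on either strand, CCAAT was found in 19 of 23 cell cycle genes with a single window, against 2738 of 7542 tested genes (36.3%). It was also found in 8 of 11 lipid synthesis genes, 11 of 20 smooth muscle and actin genes and 4 of 14 sarcomere genes. The share was 41.6% among genes called higher in H9C2 (511 of 1228) and 32.6% among genes called higher in heart (426 of 1307). TTTGAA was found in 7 of the 23 cell cycle genes and in 773 of all tested genes (10.2%). These shares are a description with no test, and no factor's binding was measured.

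Cell cycle inhibitors were mixed. Of 15 genes 7 were called higher in H9C2 and 1 higher in heart (median 10.6 points; edgeR 6 and 2). Cdkn2a, the locus of the inhibitor p16 and the p53 activator ARF, was at 0.465 and 0.0924 CPM in heart and 89.5, 98.1 and 79.6 CPM in H9C2, higher by 62.1 points (SE 2.42). Cdkn1c, the p57 inhibitor of quiescent tissue, was at 36.1 and 33.2 CPM in heart and at 0 in each H9C2 library. Cdkn1a, the p21 inhibitor, was at 244 and 214 CPM in heart and 224, 226 and 209.6 CPM in H9C2, with 2 of the 3 H9C2 libraries inside the heart range.

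Of 29 smooth muscle and actin cytoskeleton genes 9 were called higher in H9C2 and 1 higher in heart, with a median of 5.38 points. Many of them ranked above the 90th percentile in both groups, where 20 points cannot be reached: edgeR called 21 higher in H9C2 and 1 higher in heart. Acta2, smooth muscle actin, was at 545 and 582 CPM in heart and 6075, 6770.5 and 5532 CPM in H9C2, with an edgeR log2 difference of 3.19 (SE 0.11). Actb, cytoplasmic actin, was at 574 and 612 CPM against 9152, 9369.5 and 10087 CPM. S100a4, a calcium-binding protein of motile cells, was at 0 in both heart libraries and at 439.7, 488 and 362 CPM in H9C2, the largest difference in the direction of H9C2 among the genes named here. Ribosome footprints of control heart, which are the RNA fragments that ribosomes protect, did count S100a4, at the 45.8 percentile of genes with a listed reading frame, against 0.913 for heart RNA over the same genes. Myh11, the myosin of mature smooth muscle, was the gene called higher in heart, at 112 and 115 CPM against 10.7, 12.9 and 13.1 CPM.

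Tagln, the actin-binding protein transgelin, was placed differently by the RNA and the footprints of heart. It was at 0.931 and 1.11 CPM in heart RNA and 1269.5, 1360.2 and 1114 CPM in H9C2, higher by 70.5 points. Heart ribosome footprints of control mice put Tagln at the 82.9 percentile of genes with a listed reading frame, against 10.4 for heart RNA over those same genes. Its record overlaps that of Pcsk7 in the mouse annotation; whether reads in shared sequence were dropped in counting was not tested. Actg2, smooth muscle gamma actin, was at 2.51 and 3.23 CPM against 978, 1093 and 856 CPM, and actin genes share much of their sequence.

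Extracellular matrix genes went both ways. Of 34 genes 10 were called higher in heart and 6 higher in H9C2, against 18.6% and 15.8% of all tested genes. The H9C2 share was near that of all tested genes. The median was 0.778 points, close to the 0.995 of all tested genes, and edgeR called 10 each way. Col1a1, the main fibrillar collagen, was at 407 and 469 CPM in heart and 11253, 10958 and 11546 CPM in H9C2, with an edgeR log2 difference of 4.43 (SE 0.10) and 1.89 points. Fn1, fibronectin, was at 335 and 384 CPM against 6479.9, 5571 and 7113 CPM. Spp1 (osteopontin, +66.6 points), Timp1, an inhibitor of matrix proteases (+48.3 points), and Lox, which cross-links collagen (+33.4 points), were called higher in H9C2. The heart side held Dcn, decorin, at 1253 and 1206 CPM against 0.251, 0.364 and 0.777 CPM, and Col6a2, at 312 and 356 CPM in heart and 0 in each H9C2 library. Bgn, biglycan and a proteoglycan related to decorin, was not called, at 710.3 and 785 CPM in heart and 2183, 2368 and 2146 CPM in H9C2. Col1a1, Fn1 and Bgn were thus above the heart range in every H9C2 library, while Dcn and Col6a2 were below it.

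**Figure D4:**
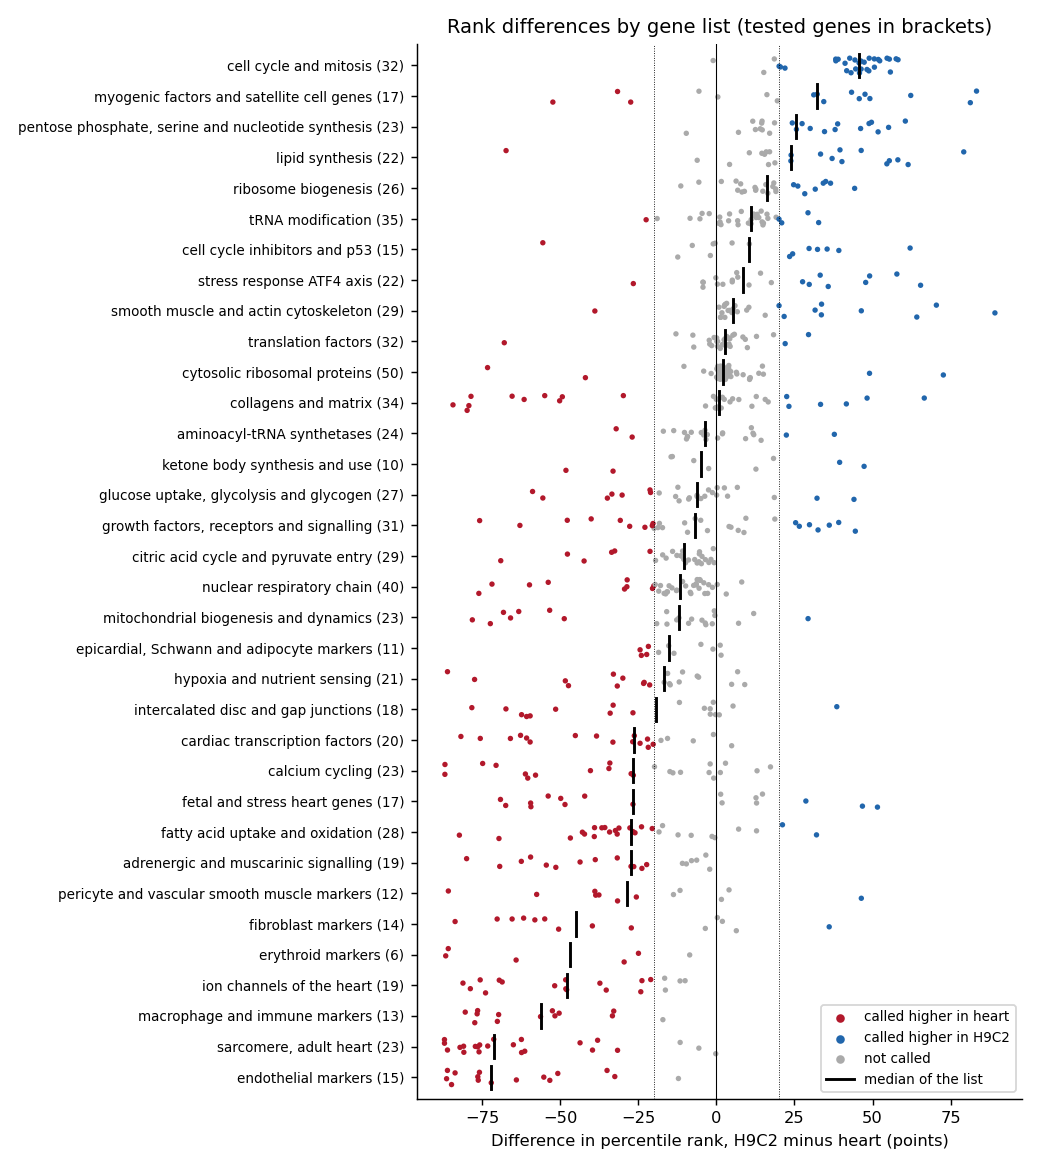
Difference in percentile rank, H9C2 minus heart (x axis, points), for each tested gene of 34 lists (y axis, ordered by median, number of tested genes in brackets); colours mark called genes, black bars the list medians and dotted lines 20 points. Endothelial markers and sarcomere genes lie at one end, with medians of -72.2 and -71.4 points, and the cell cycle list at the other, with 45.8 points.

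In energy metabolism, most genes of fatty acid burning ranked lower in H9C2. Of 28 genes that take up or oxidise fatty acids 18 were called higher in heart and 2 higher in H9C2, with a median of -27.2 points. Fabp3, the fatty acid carrier of heart muscle, was at 3135 and 3072 CPM in heart and 0.132, 0.216 and 0.129 CPM in H9C2, lower by 69.7 points (SE 0.99; limma, Benjamini-Hochberg adjusted p = 3.37e-07). Fabp3 thus entered the test through heart alone. Plin5, which ties lipid droplets to mitochondria, was at 216 and 218 CPM in heart and at 0 in each H9C2 library. Acadm, which starts the breakdown of medium-chain fatty acids, was lower by 31.8 points. Lpl, the lipase that frees fatty acids from blood lipids, was at 3944 and 3743 CPM against 79.5, 74.4 and 79.6 CPM; it missed the 20-point rule at -18.4 points, with an edgeR log2 difference of -5.88 (SE 0.08).

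The 2 genes called higher in H9C2 were Acsl4, an acyl-CoA synthetase for arachidonic acid (+32.1 points), and Cpt1c, the brain member of the Cpt1 family (+21.1 points). Cpt1b, the muscle form of the mitochondrial fatty acid gate, was at 2.23 and 2.22 CPM in heart and 7.81, 8.16 and 7.18 CPM in H9C2. That puts Cpt1b higher in the cell line by 12.8 points, short of a call. Heart footprints placed Cpt1b at the 44.4 percentile, against 15.7 for heart RNA over the same genes, so the 2 heart readouts disagreed on its level.

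Genes of the citric acid cycle and of the nuclear respiratory chain were called higher in heart at shares near the 18.6% of all tested genes, and more often by fold. Of 29 citric acid cycle and pyruvate genes 6 were called higher in heart and 0 in H9C2, and edgeR called 22 and 0. Of 40 respiratory chain genes 9 were called higher in heart and 0 in H9C2, against 26 and 0 by edgeR. Leaving out 1 library in turn moved the respiratory chain count between 7 and 11. Pdk4, the kinase that shuts pyruvate out of the cycle when fatty acids are burned, was at 1865 and 2251 CPM in heart and 0.132, 0.202 and 0.194 CPM in H9C2. Cs, citrate synthase, was at 2482 and 2508 CPM against 248, 226 and 249 CPM, lower in each H9C2 library than in both heart libraries.

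The respiratory genes that were farthest apart were muscle forms of subunits. Cox6a2, the heart and muscle form of a cytochrome oxidase subunit, was at 2049 and 2023 CPM in heart and 7.3, 9.06 and 5.13 CPM in H9C2, lower by 53.9 points (SE 1.49). Its counterpart Cox6a1, used in most tissues, was at 119 and 117 CPM in heart and 474, 529 and 402 CPM in H9C2, higher by 8.09 points and not called. Cox7a1 (-71.9 points) and Cox8b (-76.1 points), further muscle forms, were called higher in heart. Ppargc1a, the coactivator that drives mitochondrial biogenesis, was at 270.0 and 232 CPM in heart and 0, 0 and 0.0777 CPM in H9C2, lower by 78.2 points, whereas Tfam, the mitochondrial DNA packaging factor, was near its heart level, at 41.8 and 43.1 CPM against 49.4, 50.6 and 42.5 CPM. Ckm, muscle creatine kinase (-66 points), and Mb, the oxygen store myoglobin, at a mean of 11671 CPM in heart and 0.258 CPM in H9C2, were called higher in heart.

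Ketone body metabolism, which the series title names, was represented by 10 genes. Of these 2 were called higher in heart and 2 higher in H9C2, shares near the 18.6% and 15.8% of all tested genes, while edgeR called 6 and 2. Enzymes that use ketone bodies were counted in both groups. Oxct1, which hands coenzyme A to acetoacetate, was at 1318 and 1348 CPM in heart and 368, 329 and 372 CPM in H9C2, -2.5 points and an edgeR log2 difference of -2.16 (SE 0.07). Acat1, which splits acetoacetyl-CoA, was at 639 and 677 CPM against 90.5, 91.1 and 89.7 CPM. Bdh1, the mitochondrial hydroxybutyrate dehydrogenase, was at 11.6 and 13.3 CPM in heart and 27.9, 29.8 and 28.9 CPM in H9C2, higher by 12.6 points and not called. The genes called higher in H9C2 were Aacs, which spends acetoacetate on lipid synthesis in the cytosol, at 7.82 and 7.76 CPM against 158, 148 and 160.2 CPM, and Bdh2, a cytosolic dehydrogenase, at 2.33 and 1.57 CPM against 48.9, 49.9 and 44.1 CPM.

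At 2 steps of glycolysis one form of an enzyme was called higher in heart and another higher in H9C2. Of 27 genes of glucose uptake, glycolysis and glycogen 7 were called higher in heart and 2 higher in H9C2 (edgeR 11 and 3). The shares over all tested genes were 18.6% and 15.8%. Slc2a4, the insulin-responsive transporter GLUT4, was at 513 and 535 CPM in heart and 32.5, 33.5 and 32.3 CPM in H9C2, lower by 33.5 points (SE 0.674), and Slc2a1, the basal transporter GLUT1, was at 19.6 and 20.6 CPM against 10.7, 12 and 8.49 CPM, lower by 8.91 points and not called. Pgam2, the muscle phosphoglycerate mutase, was lower in H9C2 by 55.6 points, and Pgam1, its counterpart in other tissues, was higher by 32.2 points. Eno3, muscle enolase, was lower by 30.2 points and Eno2, the neuronal form, higher by 44.1 points. Ldha, lactate dehydrogenase A, was level in the 2 groups by rank, at 1099 and 1137 CPM in heart and 1157, 1135 and 1078 CPM in H9C2, a difference of 0.0484 points (SE 0.111) whose sign turned under edgeR (log2 -0.24).

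Biosynthetic pathways ranked higher in the cell line. Of 23 genes of the pentose phosphate pathway and of serine and nucleotide synthesis 13 were called higher in H9C2 and 0 higher in heart (median 25.6 points). Phgdh, the first enzyme of serine synthesis, was at 3.16 and 4.07 CPM in heart and 396, 405 and 361 CPM in H9C2, higher by 60.5 points (SE 0.816). Psat1, the next enzyme, was higher by 55.2 points, and Rrm2, the ribonucleotide reductase subunit of S phase, by 48.9 points. Of 22 lipid synthesis genes 12 were called higher in H9C2 and 1 higher in heart (median 23.9 points). Sqle, the squalene epoxidase of sterol synthesis (+61.4 points), was among them. Acacb, the acetyl-CoA carboxylase that restrains fatty acid oxidation in muscle, was the gene called higher in heart, at 667 and 654 CPM against 0.634, 0.121 and 0.129 CPM. Fdps, of the mevalonate pathway, was at 0.186 and 0.0924 CPM in heart and 781, 861 and 744 CPM in H9C2. Its mouse record overlaps another, whose part in this was not tested.

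**Figure D5:**
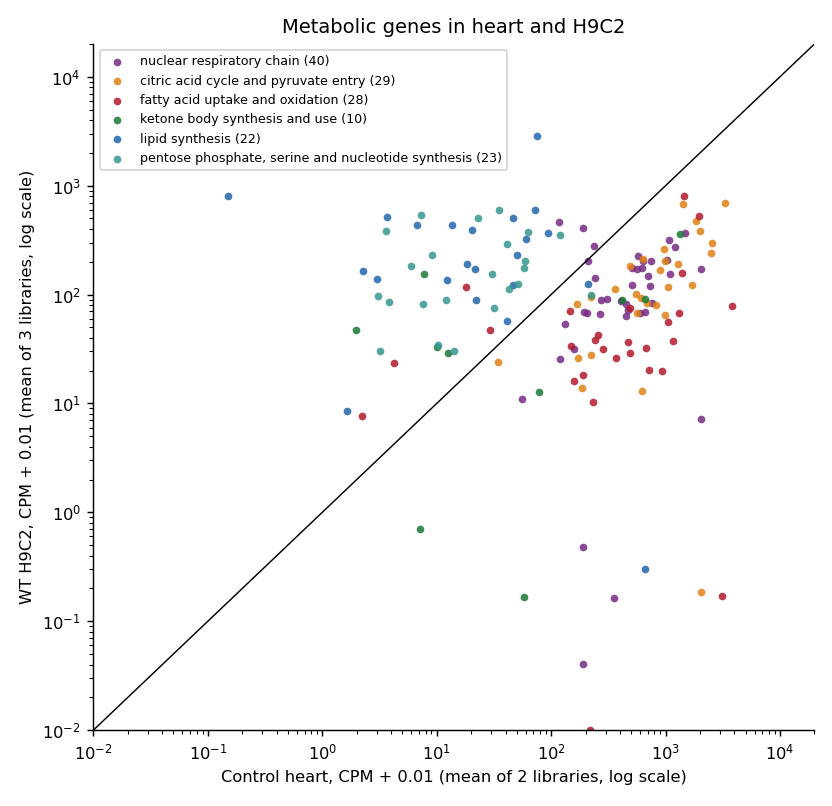
Mean CPM + 0.01 in control heart (x axis, log scale) and WT H9C2 (y axis, log scale) for the genes of 6 metabolic lists; the line marks equal CPM. Genes of the respiratory chain, the citric acid cycle and fatty acid oxidation lie mostly below the line, and genes of lipid synthesis and of serine and nucleotide synthesis mostly above it.

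Mettl1, the enzyme the series is about, was counted in both models. It places 7-methylguanosine on a set of tRNAs together with its partner Wdr4. Mettl1 was at 6.24 and 5.45 CPM in heart and 19.7, 18.5 and 19.3 CPM in H9C2, higher in the cell line by 14.9 points (SE 0.786; edgeR log2 1.46, SE 0.14) and short of the 20-point rule. Wdr4 was at 11.6 and 10.6 CPM in heart and 25.1, 25.3 and 21.4 CPM in H9C2, higher by 11 points and not called. For both genes each H9C2 library stood above both heart libraries. The mouse Mettl1 record overlaps that of Eef1akmt3.

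Of 35 tRNA modification genes 4 were called higher in H9C2, a share near the 15.8% of all tested genes, and 1 was called higher in heart, with a median of 11 points (edgeR 2 and 0). Trmt112, the small partner that activates several methyltransferases, was at 16.8 and 15.2 CPM in heart and 114, 119.5 and 90.1 CPM in H9C2, higher by 32.7 points. Trmt10a, Pus1 and Trub1 were the others, and Trmt5, which methylates a guanosine beside the anticodon, was the gene called higher in heart (-22.5 points). Among 24 aminoacyl-tRNA synthetases the calls were 2 and 2, against 15.8% and 18.6% of all tested genes. Cars (+37.8 points) and Farsa (+22.4 points), of the cytosol, were higher in H9C2. Lars2 (-32.1 points) and Fars2 (-27 points), of mitochondria, were higher in heart. Of 36 listed, the genes with no single match were Hars, Iars, Lars, Mars, Nars, Qars, Rars, Sars, Tars, Vars, Wars and Yars. These encode cytosolic forms and were not tested. The summed level of the matched genes was 1214 to 1220 CPM in heart and 3355 to 3463 CPM in H9C2.

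Few translation factors were called by rank. Genes near the top of both groups, such as Eef1a1, cannot differ by 20 points. The summed level of the list was 13758.5 to 14231 CPM in heart and 28796 to 28975 CPM in H9C2. Of 32, 2 were called higher in H9C2 and 1 higher in heart (edgeR 5 and 1), against 15.8% and 18.6% of all tested genes. That 1 was Eef1a2, the elongation factor form of muscle and neurons, at 1674 and 1694 CPM in heart and 0.277, 0.162 and 0.246 CPM in H9C2, lower by 68 points (SE 0.912), while Eef1a1, the form of other tissues, was at 2613 and 2491 CPM against 7400.1, 7358 and 7071 CPM and differed by 0.125 points. Of 26 ribosome biogenesis genes 8 were called higher in H9C2 and 0 higher in heart, with a median of 16.1 points.

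Of 50 cytosolic ribosomal protein genes 46 were not called, 2 were called higher in heart and 2 higher in H9C2 (median 2.22 points; edgeR 2 and 10). With heart footprints in place of heart RNA, and with no test, 1 of the 48 genes with a listed reading frame differed by 20 points toward heart and 39 toward H9C2, against 19.8% and 20% of all genes, so the 2 heart readouts placed this list differently. Rpl3l, the muscle form of a ribosomal protein, was at 255 and 249 CPM in heart and 0.0528, 0 and 0.104 CPM in H9C2. Rpl24 was at 0.745 and 0.37 CPM in heart and 559, 668 and 538 CPM in H9C2, and Rpl13a at 12.7 and 12.7 CPM against 914, 957 and 774 CPM. Ribosomal protein genes have many near-identical copies and Rpl24 and Rpl13a overlap other records, so these levels are uncertain. Under 1 CPM in each heart library were 46 genes called higher in H9C2 at 50 CPM or more. Of these 22 (47.8%) overlap another record, against 47.4% of tested genes. These shares ignore strand, and whether overlap lowered heart counts was not tested.

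Whole heart holds vessel, blood, immune and stromal cells beside muscle cells, and in bulk RNA fewer cells of a type and less RNA per cell cannot be told apart. Of 15 endothelial markers 14 were called higher in heart and 0 in H9C2 (median -72.2 points). Their summed level was 5943 to 6191 CPM in heart and 166 to 174 CPM in H9C2, and the defining genes Cdh5, Kdr, Tie1, Cldn5, Emcn and Robo4 were at 0 in each H9C2 library. Eng, endoglin, was the marker not called, at 534 and 555 CPM against 104, 106 and 100.1 CPM. Of 13 macrophage and immune markers 12 were called higher in heart and 0 in H9C2, with a sum of 1204 to 1278 CPM against 3.64 to 4.39 CPM. Ptprc, the pan-leukocyte CD45, was at 8.56 and 9.42 CPM in heart and at 0 in each H9C2 library. Of 6 erythroid markers 5 were called higher in heart and 0 in H9C2, and the globin gene Hbb-bs, at 1312 and 1406 CPM in heart, was at 0 in H9C2.

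Stromal markers were less one-sided. Of 14 fibroblast markers 9 were called higher in heart and 1 higher in H9C2, yet the sum of the list was 6905 to 7297 CPM in heart and 14343 to 15455 CPM in H9C2, with Col1a1 on the list. Pdgfra, the growth factor receptor of heart fibroblasts, was lower in H9C2 by 70.3 points, and Thy1, a surface protein of fibroblasts and myoblasts, was higher by 36.1 points. Of 12 pericyte and vascular smooth muscle markers 7 were called higher in heart and 1 higher in H9C2. Of 11 epicardial, Schwann and adipocyte markers 4 were called higher in heart and 0 in H9C2 (edgeR 9 and 0). How much of each heart value came from cells other than muscle cells was not tested.

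Beside the lists, the 12 largest differences in the direction of heart among named genes with at least 50 CPM were Myl2, Myl3, Srl, Ryr2, Hbb-bs, Fabp4, Adgrf5, Sparcl1, Cdh5, Lmod2, Epas1 and Cmya5. They mix genes of heart muscle with genes of vessels and blood. All were at 0 in each H9C2 library, which follows in part from choosing the largest differences. Myl2 lies at chr5:122092724-122113473 and Ryr2 at chr13:11553099-12106945 (GRCm38). In the direction of H9C2 they included S100a4, Fam89b, Cdh15, Pkp1, Myh4, Raver1, Mir675, Myod1, Dmrt3, Gng10 and Eci3. All of these had at most 1 count over the 2 heart libraries, which follows in part from the same choice. Mir675 lies within the record of H19, so its counts may belong to that host transcript. Myod1 lies at chr7:46376474-46379092 and Cdh15 at chr8:122848374-122867397 (GRCm38).

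The same comparison was run on the edited H9C2 line against the knockout heart, where 2207 of 12176 genes (18.1%) were called higher in heart and 1891 (15.5%) higher in H9C2, 33.7% in all. Of the 2243 genes called higher in control heart 1989 (88.7%) had the same call, of the 1903 called higher in WT H9C2 1663 (87.4%) did, and 0 had the opposite call. These libraries differ from the first 5 but share their species, annotation and counting.

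Heart footprints gave a second readout of the same tissue. With footprints in place of heart RNA, and with no test, 2521 of 12709 genes (19.8%) differed by 20 points toward heart and 2548 (20%) toward H9C2, 39.9% in all. Both comparisons use the same H9C2 libraries, so their calls are not independent. Over the genes with a listed frame, Oxct1, which uses ketone bodies, stood at the 99.2 percentile of heart footprints and the 99.4 percentile of heart RNA, Gata4 at 85.9 and 91.2, and Mki67 at 39.7 and 40.7. Mettl1 stood at 39.9 by footprints and 25.1 by RNA, so that the footprints placed it higher in heart than the RNA did.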

How the data were processed

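RNA was sequenced from 2 control mouse heart libraries and 3 WT H9C2 libraries. The authors deposited a table of counts per gene for each species, whole numbers that were not normalized. The submitters' processing notes name cutadapt, STAR, HISAT2, featureCounts, StringTie, GRCm38 and Rnor_6.0, but not which of them made each table. The H9C2 columns carry the ending of transcript assembly files, so their counts may derive from estimated coverage.

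Genes with 1 record per symbol in each species were matched by symbol ignoring case, mitochondrially encoded genes left out: 16181 of 55487 mouse and 32883 rat records. A shared symbol was not checked for orthology. CPM was taken over matched genes, which hold 10744840 to 10823562 counts in heart and 74184202 to 77261368 in H9C2; 3 counts in 1 library, the limit that 0 counts allow, equal 0.277 to 0.279 CPM and 0.0388 to 0.0404 CPM, for counting error only. Percentile ranks were tested with limma 3.58.1 (lmFit and eBayes with a trend, R 4.3.3) and p-values adjusted by Benjamini-Hochberg over all tested genes; tables were made with Python 3.11.15 and pandas 2.3.3. edgeR 4.0.16 (quasi-likelihood, TMM) and DESeq2 1.42.0 at 4-fold, other filters, scales and point limits, and leaving out each library were alternatives. In simulated data of this comparison limma found 50 of 50 genes by adjusted p at each of 8-fold and 64-fold, up or down. The 20-point rule called 32 to 50 of them. Of 11444 unchanged genes 9 passed the adjusted p and 0 were called. There, all but the changed genes had the same mean in both groups and 1 fixed spread. In the real data 88.2% of genes passed the adjusted p, so these error counts do not carry over. Same-numbered libraries did not deviate together (correlations 0.0092 and -0.0072).

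The members and gene lists were chosen with earlier results of these data known, and no list is independent evidence of its direction. Named genes were 28 marker genes (Pecam1 had no single match), the 12 called genes per direction with the largest difference and at least 50 CPM in the higher group (predicted and clone names left out), up to 4 called genes per list with the largest difference, and the 10 list genes with the smallest difference above the 90th percentile in every library. Other list genes were named after their values were seen. Footprint ranks use the authors' deposited counts per reading frame. Promoter windows are 250 bases before the start, from RefSeq. No column of the 2 tables was left without a sample. Some named genes are not reported here.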

Additional observations from a re-analysis of the deposited data

How the results depend on the processing

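The number of calls followed the rank difference asked for. It was 3512 higher in heart and 3731 higher in H9C2 at 10 points, 772 and 390 at 40 points, and 4933 and 5678 with the adjusted p and no overlap alone. Other filters, scales, tests and normalizations kept both counts within 1.5 times, and leaving out 1 library in turn gave 2192 to 2277 and 1874 to 1926. No pairing by number was shown, and the fit with the replicate block called 2278 and 1926. With edgeR the list counts that moved were, for heart, 22 citric acid cycle, 26 respiratory chain, 11 glycolysis, 11 mitochondrial biogenesis, 9 epicardial, Schwann and adipocyte, 6 ketone body, 2 cell cycle inhibitor and 0 tRNA modification genes, and, for H9C2, 21 smooth muscle and actin, 10 matrix, 10 ribosomal protein, 5 fetal, 5 translation factor, 4 synthetase, 2 fibroblast and 2 tRNA modification genes. The mean rho between groups was 0.503 over tested genes and 0.33 over genes at 10 CPM or more. With all records and mitochondrial genes the top 10, 100 and 1000 shares were 21.1, 20.3 and 12.3 percentage points higher in heart, and without ribosomal protein genes the top 1000 share 5.32 points higher.

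Of the named genes 4, all near 0 difference, changed sign. Ldha was at -0.24 (edgeR TMM, log2), -0.38 (RLE) and -0.38 (DESeq2). Rpl7 was at -0.11 (edgeR TMM), -0.25 (RLE), -0.25 (DESeq2) and from -0.074 to 0.155 points with 1 library left out. Rps24 was at -0.11 (RLE), -0.11 (DESeq2) and from -0.020 to 0.345 points with 1 library left out. Vldlr was at 0.080 (edgeR with library totals). A further 29 named genes lost their call in at least 1 setting, all 29 of them at 40 points. Depth limits heart most: 3 counts there are 0.277 CPM or more.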

Other observations

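Of 31 growth factor and receptor genes 9 were called higher in heart and 7 higher in H9C2, against 18.6% and 15.8% of all tested genes, with a median of -6.81 points. Igf1, the local growth factor of muscle, was at 23.2 and 24 CPM in heart and at 0 in each H9C2 library. Tgfa, a ligand of the EGF receptor, was higher in H9C2 by 44.5 points. Of 21 hypoxia and nutrient sensing genes 10 were called higher in heart and 0 in H9C2. Epas1, the oxygen-regulated factor of vessels, was at 714 and 689 CPM in heart and 0 in each H9C2 library, while Hif1a, its counterpart in most cells, was at 87.1 and 80.4 CPM against 160.3, 153 and 173 CPM and was not called.

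Of 22 genes of the ATF4 stress response 8 were called higher in H9C2 and 1 higher in heart (median 8.63 points). Asns, which makes asparagine, was at 4.0 and 4.43 CPM in heart and 274, 278 and 269 CPM in H9C2, and Slc7a11, the cystine transporter, was higher by 65.4 points. Atf4, the factor the list is named for, was at 154 and 142 CPM against 650.2, 699 and 595 CPM, +6.49 points and not called. Atf3, an early stress factor, was the gene called higher in heart (-26.6 points).

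Some genes were called with 0 counts in the other group. Such a gene was tested only because of its level in the group where it was counted. The share of such genes among all tested genes was not computed. In heart replicate 1, Tagln at 0.931 CPM stood at the 28.8 percentile, against 12.7 to 13.0 for 0 counts in H9C2. That gap is short of the point rule, but a little above the filter it is not. Slc39a7, at 2.61 and 2.49 CPM in heart, stood at the 34.7 and 34.2 percentiles there. How many calls toward heart the filter set was not tested. Of the genes called higher in heart 726 were at 0 in all 3 WT H9C2 libraries. Without the share over all tested genes, these 726 say little about the groups. Of these, 219 had at least 1 count in a library of the edited line, 109 had 10 or more over its 3 libraries, and 507 were at 0 in all 6. Of the genes called higher in H9C2 145 were at 0 in both control hearts, 46 of them with a count in a knockout heart. For these genes the filter largely set the call. In H9C2 replicate 1, Ckmt2 at 0.95 CPM stood at the 36.9 percentile, against 8.31 to 8.56 for 0 counts in heart. That gap already exceeds the point rule, so their number says little about the groups. Of these 145 genes 38 had a listed reading frame and 21 of those had a heart footprint.

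For 15 genes with at least 50 CPM in H9C2 and a heart RNA rank under the 50th percentile, heart footprints ranked at least 40 points above heart RNA. Ilk, integrin-linked kinase, was at 4.28 and 5.27 CPM in heart RNA, with footprints at the 88.6 percentile against 22.5 for RNA. Ccdc22, at 0 in both heart RNA libraries, had footprints at the 55.9 percentile. Why the readouts differ was not tested.

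In WT H9C2 replicate 2 single genes stood apart from the other libraries. Pdha1, a pyruvate dehydrogenase subunit, was at 329, 113 and 339 CPM in replicates 1 to 3, and Pfkfb3, a regulator of glycolysis, at 57.9, 12.7 and 56.7 CPM. Neither gene was called. The citric acid cycle list, which holds Pdha1, kept 6 calls with each library left out in turn, and the glycolysis list, which holds Pfkfb3, had 5 to 7.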
